A study of Rattus norvegicus with 6 samples.

Results

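The lncRNA table of the series lists 1735 distinct transcripts by an Ensembl transcript identifier of the rat, and these are the transcripts described here. They were chosen by the prefix of the identifier alone, whatever their values, and make up 1735 of 9054 distinct lncRNA entries and of 29788 entries with values in the series. The table lists them in 1979 lines, of which 244 are exact repeats. A repeat concerns 137 transcripts, one of them given 17 times. A further 3 lines name an Ensembl transcript without values, and each of these transcripts has values elsewhere in the table. None of the identifiers appears in the mRNA table.

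Long non-coding RNAs are transcripts without a recognised protein product. Some act in the nucleus on neighbouring genes, some bind proteins or microRNAs in the cytoplasm, and for many no role is known. Ensembl annotates transcripts genome by genome from aligned cDNA, RNA sequence data and computed models, so its non-coding entries can hold intergenic and antisense RNAs and also transcribed pseudogenes and small RNA genes. In the heart, stimulation of beta-adrenergic receptors raises cAMP in cardiomyocytes and, when sustained, drives hypertrophic growth with a shift in metabolic and contractile genes. Several lncRNAs are known to take part in cardiac hypertrophy. The comparison asks which non-coding transcripts differ after such stimulation.

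The cells were primary ventricular cardiomyocytes of newborn Sprague-Dawley rats aged 1 to 3 days, from which fibroblasts had been depleted by an attachment step before plating. After a period without serum, 3 cultures were left untreated and 3 received 10 µM isoproterenol, a beta-adrenergic agonist, for 24 h, and total RNA of each was hybridised to a one-colour array. The labels also mention passages, and the series text mentions transfection, which was not resolved against this protocol. Replicates are described as biological, yet no label ties one to a litter or a plating, so the p-values measure only the spread between these cultures, which may in part be technical. The 6 arrays limit the precision of every value.

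The files pair no Ensembl identifier with a gene name, a transcript class or a neighbouring gene, and the RefSeq gene table used for names holds 0 of them. Genome positions and sequences of the transcripts are therefore not given. Transcripts are called by identifier, and only the leading rises and falls are printed in that way.

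All 1735 Ensembl transcripts could be placed on an array probe, since each line of the table carries the same values as a probe of the scanner files after quantile normalization. The match held a second time in the numbering of the design: along the sorted identifiers the probe number rose in 1734 of 1734 neighbouring pairs. The scanner software marks on each array whether a probe is well above background. Slide 1 carried the 3 controls and isoproterenol replicate 1, and there between 98.3% and 99.8% of the Ensembl transcripts passed this mark. On slide 2, which carried isoproterenol replicates 2 and 3, the shares were 73.9% and 80%. Arrays of 2 scan times with repeated array positions are taken as 2 slides here, per the file headers.

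**Figure D1:**
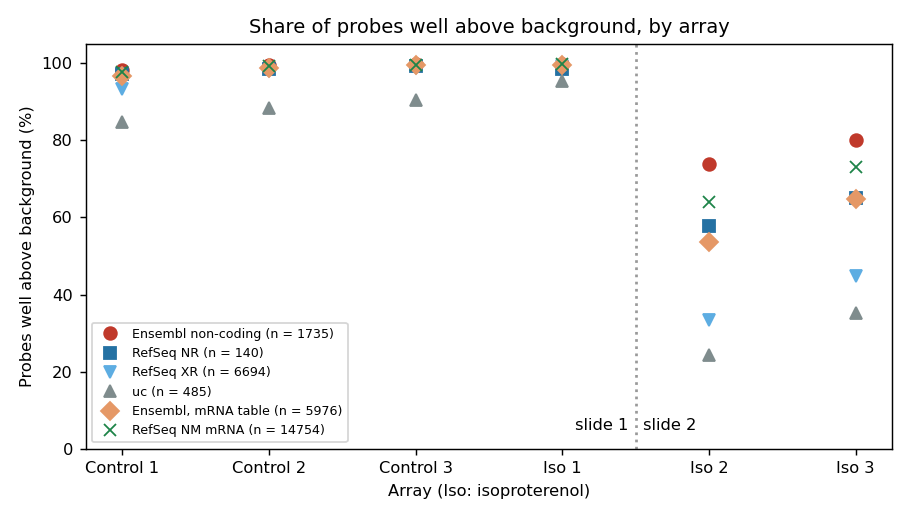
Percent of probes well above background on each array, for the 4 identifier classes of the lncRNA table and the 2 of the mRNA table; n is the number of probes. On slide 2 the Ensembl non-coding transcripts stood at 73.9% and 80%, the highest of the 6 classes, and the uc transcripts at 24.3% and 35.1%, the lowest.

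The Ensembl transcripts were measured above background more often than the other lncRNAs. In all, 1278 of them (73.7%) were well above background on all 6 arrays, against 2387 of 7258 other lncRNAs tested (32.9%). By class, the share was 57.9% for the curated RefSeq NR transcripts, 32.7% for the predicted XR transcripts and 24.3% for the uc transcripts. The uc share is over all 485 uc entries, of which 424 were tested. Even the mRNA probes stayed below, at 60.7%. A further 112 Ensembl transcripts were well above background on 5 arrays, 302 on 4 and 43 on 3. The signal was thus lost mainly on slide 2: 300 transcripts were above background on all slide 1 arrays and on neither slide 2 array, and 107 missed isoproterenol replicate 2 alone. These are shares of probes, and probes differ in how well they bind, so the shares do not rank the transcripts by abundance. Each Ensembl transcript of the table passed the mark on 3 or more arrays. One that missed both slide 2 arrays therefore had to pass on at least 3 of slide 1, which sets part of the slide 1 shares.

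Few Ensembl transcripts passed the mark in one whole group and nowhere in the other. The number above background on all 3 isoproterenol arrays and on 0 controls was 0, and 4 were above background on all 3 controls and on 0 isoproterenol arrays. Every one of the 1735 was above background on at least 1 control array. The table itself sets part of this pattern, because each Ensembl transcript it holds passed the mark on 3 or more of the 6 arrays.

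The mRNA probes of the same arrays served to check the labels. All 10 cardiomyocyte markers, such as Tnnt2, Actn2 and Ryr2, were well above background on all 6 arrays. Their summed level lay between 10.85 and 11.18 in controls and between 11.27 and 12.02 with isoproterenol. Of them 2 rose, Myh6 and Nppa, and 1 fell, Pln, with log2 changes of 1.21, 1.74 and −0.84. All 8 genes listed for the response to isoproterenol changed in limma's moderated test, where 16.1% of the mRNA genes did. This list was chosen with earlier results of these data known, so its count is no independent check of the treatment label. Nppb rose by 2.90 ± 0.69 on the log2 scale (SE, n = 3 per group, adjusted p = 0.0353). The cAMP-induced kinase gene Sik1 rose by 3.24 ± 0.19 (adjusted p = 0.00161), and Cpt1b, the mitochondrial gate for fatty acids, fell by 2.68 (adjusted p = 0.00161). RNA of other cells was present. Of 8 fibroblast markers 7 were above background on all arrays, with a summed level between 7.30 and 7.39 in controls and between 7.07 and 7.44 with isoproterenol. Within this list the collagen gene Col3a1, Postn and Tcf21 fell, with log2 changes of −1.12, −1.34 and −0.77, and Thy1 rose by 1.04. The 3 smooth muscle markers measured (2 above background on all arrays) summed to between 6.45 and 7.29 in controls and between 7.84 and 9.02 with isoproterenol, and Acta2 and Tagln, which young cardiomyocytes can also express, were the 2 that rose. The endothelial list (3 of 5 on all arrays) summed to 3.31 to 3.51 and 3.31 to 3.60, the leukocyte list (3 of 4) to 3.36 to 4.15 and 3.77 to 4.13, and the erythroid list (1 of 3) to 2.95 to 3.27 and 2.32 to 2.54. Among these, Kdr and the globin genes Hbb and Hba-a2 fell, with log2 changes of −1.24, −0.86 and −0.69, and Cd14 rose by 1.22. Markers entered only with a probe well above background on at least 3 arrays, so none measured could be below it on all 6. Of the 4 smooth muscle markers listed 3 entered, and of the 5 leukocyte markers 4. The part of these cells in the lncRNA changes was not tested, and in cultures fewer cells of a type and less RNA per cell cannot be told apart.

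Between isoproterenol and control, 25 Ensembl transcripts changed, 14 higher and 11 lower with isoproterenol. The other 1710 did not pass. Changes were measured on log2 signals scaled to the 75th percentile of each array, tested with limma over all 8993 lncRNA probes well above background on at least 3 arrays, with Benjamini-Hochberg adjustment and a threshold of 0.05. All 1735 Ensembl transcripts entered this test. The share changed, 1.44%, lies below the 2.47% of all lncRNA probes tested, of which 1.25% were higher and 1.22% lower. The 14 rises ranged from 1.13 to 2.65 on the log2 scale with a median of 1.48, and the 11 falls ranged from −2.34 to −1.46 with a median of −1.81. Every changed transcript therefore differed by more than 2-fold, and 2 rises and 5 falls by more than 4-fold. The adjusted p-values ran from 0.00631 to 0.0478 among the rises and from 0.0170 to 0.0472 among the falls. In all 25 the values of the groups did not overlap.

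The number depended strongly on the arrays used. All controls were on slide 1, so a fit with slide as a block takes its value from isoproterenol replicate 1 alone, set against the controls, and uses slide 2 only for the spread. In that fit 5 Ensembl transcripts changed, 3 higher and 2 lower, where 0.5% of all lncRNA probes did (0.167% higher and 0.334% lower). Of the 25, 4 were called again and the rest had adjusted p-values up to 0.174. The direction of the 25 is set there by the lack of overlap between the groups and is no further support. Within slide 1, where isoproterenol replicate 1 is compared with the 3 controls, limma called 0 Ensembl transcripts and 0 of all lncRNA probes. The lowest adjusted p of an Ensembl transcript there was 0.0930, and 342 (19.7%, against 18.2% of all lncRNA probes) had an unadjusted p under 0.05. The split into higher and lower moved with the scaling: it was 7 and 15 with scaling over the probes above background on all arrays, and 17 and 4 with normexp background correction.

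**Figure D2:**
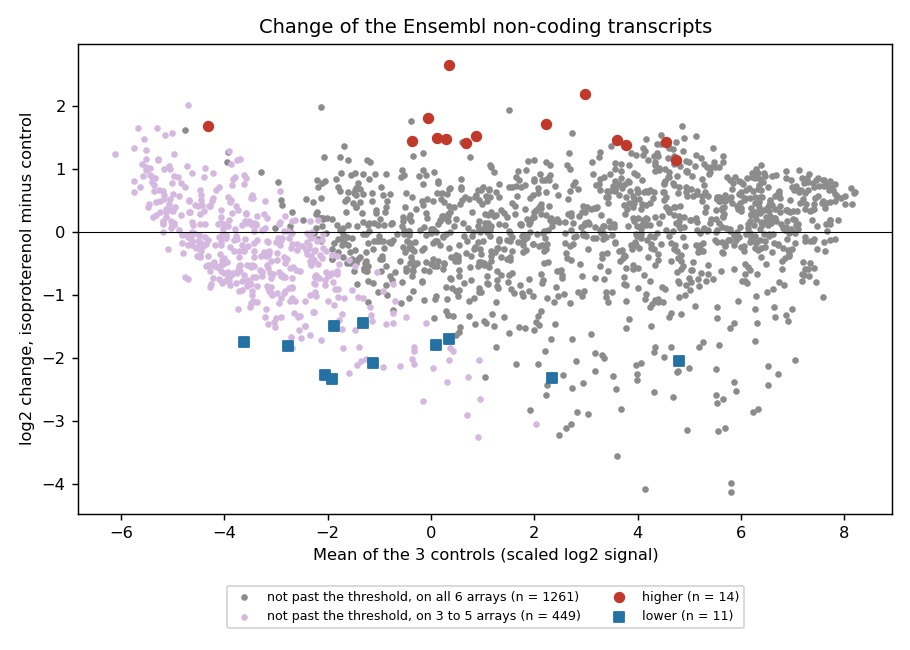
Log2 change, isoproterenol minus control, of each of the 1735 Ensembl transcripts against its mean in the 3 controls (log2 signal scaled to the 75th percentile of the array). Red circles are the 14 that rose, blue squares the 11 that fell, and small dots the 1710 that did not pass; bright transcripts with changes below −3 are among those that did not pass.

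ENSRNOT00000047102 showed the largest rise of the 25. Its scaled log2 signal was 0.43, 0.54 and 0.04 in the controls and 2.74, 3.11 and 3.09 in isoproterenol replicates 1, 2 and 3. All isoproterenol arrays, those of both slides, lay more than 2 log2 units above the highest control, and all 6 arrays were well above background. The mean went from 0.34 ± 0.26 to 2.98 ± 0.21 (SD, n = 3), a change of 2.65 ± 0.24 (SE) or 6.26-fold, with limma adjusted p = 0.00631. The difference of isoproterenol replicate 1 from the controls was 2.40, with an adjusted p of 0.0454 with slide as a block and of 0.115 within slide 1, both resting on that 1 treated array. Without control replicate 2 or 3, or isoproterenol replicate 2, limma's adjusted p was 0.0646, 0.0765 and 0.0513, at changes of 2.75, 2.50 and 2.58.

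ENSRNOT00000035482 was the second largest rise. In the controls it measured 3.44, 2.82 and 2.69, and in the isoproterenol arrays 4.38, 5.70 and 5.45. The isoproterenol array of slide 1 was the lowest of its group and the first control the highest of its own, and the gap between the groups was narrower than for the leading transcript. The change was 2.19 ± 0.40, or 4.56-fold (adjusted p = 0.0472). With slide as a block it was 1.39 (adjusted p = 0.174), so the call did not hold there. It also ended under quantile normalization (1.87, adjusted p = 0.0829), with the values of the deposited table (1.87, adjusted p = 0.0664), with median scaling (adjusted p = 0.0566) and with scaling over probes above background on all arrays (adjusted p = 0.0528). Leaving out any control, or isoproterenol replicate 2 or 3, ended it as well, with adjusted p-values from 0.103 to 0.220.

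ENSRNOT00000076150 had the lowest fitted change of the 25, on a probe that was not well above background on the slide 2 arrays, so that its place beside the next fall, −2.33, has no firm order. It measured −1.78, −1.97 and −2.02 in the controls and −4.78, −4.31 and −3.70 with isoproterenol. The controls lay close together, and the lowest value was that of the isoproterenol array on slide 1, the only isoproterenol array on which the probe was well above background. Before scaling, its signal was 149, 140 and 128 scanner units in the controls and 20.5 in isoproterenol replicate 1, and 9.96 and 18.5 on the slide 2 arrays. The fall was −2.34 ± 0.31 (adjusted p = 0.0221), and −2.85 with slide as a block (adjusted p = 0.0445). With normexp background correction, which handles dim spots in another way, it was −0.59 and did not pass (adjusted p = 0.205), where ENSRNOT00000036611 was at −2.12, and quantile normalization gave −2.32 (adjusted p = 0.0524). Without any one control, or without isoproterenol replicate 2, adjusted p-values were 0.0837 to 0.149.

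ENSRNOT00000036611, by contrast, fell while well above background on all 6 arrays. Its values were 2.10, 2.45 and 2.45 in the controls and 0.73, −0.76 and 0.03 with isoproterenol. The slide 1 isoproterenol array was the least reduced, and the isoproterenol arrays lay far apart beside the controls. The mean fell from 2.33 ± 0.20 to 0.00 ± 0.74 (SD), a change of −2.33 ± 0.39, or 5.03-fold lower (adjusted p = 0.0382). With slide as a block the value was −1.60 (adjusted p = 0.147), and quantile normalization also ended the call (−2.37, adjusted p = 0.0625). Of the single arrays, leaving out any control or isoproterenol replicate 2 or 3 ended it, with adjusted p-values from 0.0892 to 0.199.

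**Figure D3:**
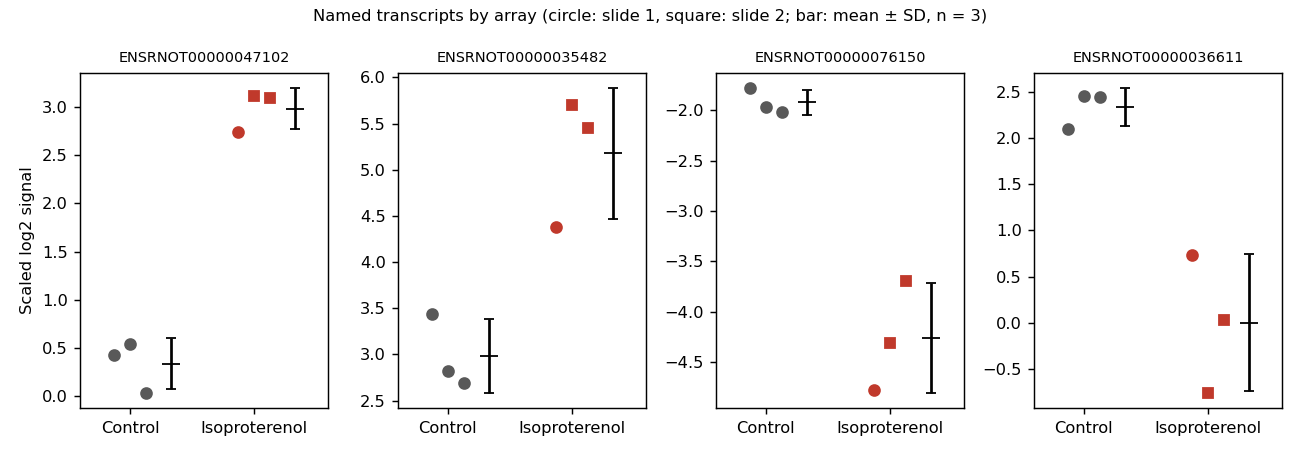
Scaled log2 signal of the 2 largest rises and the 2 largest falls on each array, with the mean ± SD of each group (n = 3); circles are slide 1 arrays, squares slide 2 arrays, and each panel has its own axis. The groups are apart in all 4 panels, and the isoproterenol values of ENSRNOT00000047102 are the closest together, with an SD of 0.21.

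The remaining 12 rises were at most 1.81 and the remaining 9 falls at least −2.27 on the log2 scale. Of the 14 rises 13 were well above background on all 6 arrays and 1 missed a single slide 2 array. Of the 11 falls 4 were above background on all arrays, 1 missed a single slide 2 array, and 6 were above background on neither slide 2 array, so that their fall rests on dim spots there. A probe that is high with isoproterenol is the more likely to pass the mark there, so these counts follow in part from the direction. The isoproterenol array of slide 1 lay on the side of the others in all 25, which the lack of overlap fixes. It lay between 0.89 and 2.40 above the control mean for the rises and at differences of −2.85 to −1.09 from it for the falls. For 9 of the 14 rises it was the lowest of the 3 isoproterenol values, and for 7 of the 11 falls the highest. Of the transcripts listed more than once in the table, 3 of 137 changed.

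When only probes well above background on all 6 arrays entered the test, more transcripts passed. Of 1278 Ensembl transcripts 203 changed, 154 higher and 49 lower, which is 15.9% against 18.6% of all 3665 such lncRNA probes. Higher transcripts made up 12.1% (13.4% of all such probes) and lower ones 3.83% (5.18%). The median rise was 0.89 and the median fall −0.92 on the log2 scale, smaller than among the 25, and 55 rises and 21 falls reached 2-fold. All 17 of the 25 changed transcripts that entered this test passed it, 13 of the 14 rises and 4 of the 11 falls. The filter asks for signal on the slide 2 arrays, which carry isoproterenol only. It thus drops falls more readily than rises, and the split of 154 and 49 depends in part on it. With slide as a block in addition, an analysis added after the values were seen, 112 changed, 77 higher and 35 lower (8.76%, against 12.4% of the lncRNA probes, 7.07% higher and 5.32% lower). Of the 203, 75 were called in both, 55 higher and 20 lower. These calls too take their value from isoproterenol replicate 1 alone, and since none of the 203 overlapped between the groups, their direction could not change.

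Many Ensembl transcripts differed between the groups without passing. In 728 (42%) the groups did not overlap, against 31.7% of all lncRNA probes tested. In 483 the isoproterenol values were all above the controls (27.8%, against 19.5%) and in 245 all below (14.1%, against 12.2%). An unadjusted p under 0.05 was found for 558 (32.2%, against 24.3%). When only probes above background on all 6 arrays were tested, these shares were closer, at 42.5% against 40.4% of all such lncRNA probes. The Ensembl transcripts held more of such probes, 73.7% against 32.9% of the other lncRNAs. The shares without overlap were not compared in this way. Among all 1735 the median change was −0.01, the same as over all lncRNA probes. The middle of the distribution was alike too, with quartiles at −0.58 and 0.51 for the Ensembl transcripts and at −0.49 and 0.46 over all lncRNA probes. The lower tail was longer: the 5th percentile was −1.81 against −1.29, while the 95th was 1.10 against 1.21.

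The long lower tail was seen on the slide 2 arrays. Whatever the p-value, 231 Ensembl transcripts were at least 2-fold lower (13.3%, against 9.07% of all lncRNA probes) and 118 at least 2-fold higher (6.8%, against 8.06%). Of the 231 lower ones, 224 were at least 2-fold lower on both slide 2 arrays, but only 20 were so in isoproterenol replicate 1, and in 114 that array lay above the control mean. Their median difference from the control mean was −0.02 in isoproterenol replicate 1 and −2.39 and −2.16 in replicates 2 and 3. The 118 higher ones were less divided, with medians of 0.53, 1.55 and 1.52, and 2 of them lay on the other side of the control mean in replicate 1. Of the 231 lower ones, 145 were above background on all 6 arrays and 64 on neither slide 2 array. The share on all 6 arrays was larger among all Ensembl transcripts, at 73.7%, and the share on neither slide 2 array was smaller, at 19.8%. The part of dim signal in these falls was not tested.

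A set within this tail, singled out after the values were seen and given no test, was within 2-fold of the control mean in isoproterenol replicate 1 and at least 4-fold lower in both replicates 2 and 3. It held 100 Ensembl transcripts (5.76%) but 62 of 7258 other lncRNAs (0.854%). Well above background on all 6 arrays were 69 of the 100 and 6 of the 62. In the 100, replicate 1 differed from the control mean by −0.99 to 0.90 with a median of 0.16, and 67 were above it, while replicates 2 and 3 had medians of −3.41 and −3.03 and reached −6.75 and −6.40. The opposite pattern, at least 4-fold higher on slide 2 alone, was seen in 2 Ensembl transcripts (0.115%, against 0.489% of all lncRNA probes). The same set held 109 of 5976 mRNA-table probes with an Ensembl identifier (1.82%) and 90 of the 14052 other mRNA genes (0.64%). None of the 100 changed in the test over all lncRNA probes. The rule that picked the set makes the isoproterenol values spread widely, so this follows largely from the selection. Isoproterenol replicates 2 and 3 differ from replicate 1 by slide as well as by culture, and slide and culture cannot be told apart here. The slide 2 arrays also had a lower 75th percentile of signal, 198 and 240 scanner units against 514 to 562 on slide 1. Their negative controls were brighter, with median signals of 7.67 and 5.72 against 1.87 to 2.50. The part of either in this set was not tested.

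**Figure D4:**
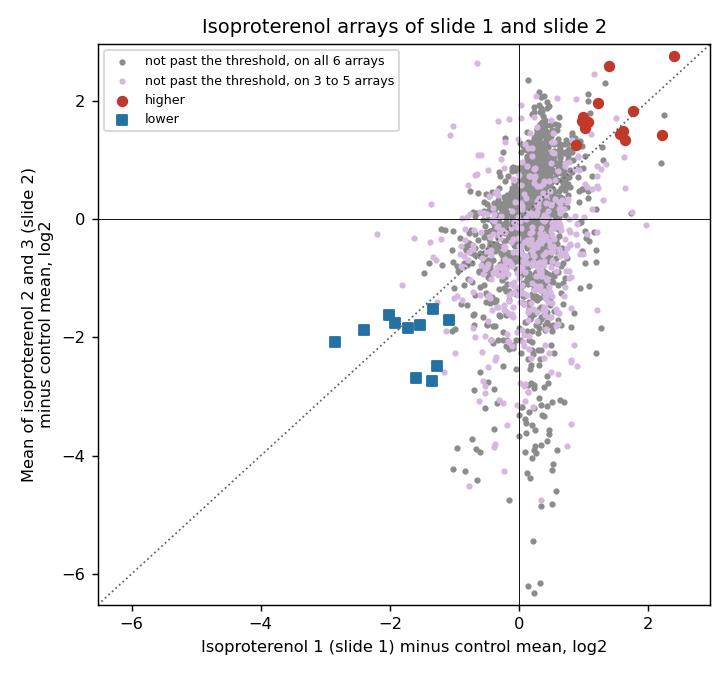
For each Ensembl transcript, the log2 difference of isoproterenol replicate 1 (slide 1) from the control mean, against the mean difference of replicates 2 and 3 (slide 2); the dotted line marks equal values. The 25 changed transcripts lie at the upper right and lower left, and a column of points near 0 on the horizontal axis extends down to about 6 units below the controls on slide 2.

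The isoproterenol arrays accordingly disagreed more than the controls. The median SD of an Ensembl transcript was 0.12 log2 units over the 3 controls and 0.41 over the 3 isoproterenol arrays, and it was larger with isoproterenol in 1445 of 1735 (83.3%). For the other lncRNAs the medians were 0.21 and 0.46, so the Ensembl transcripts were the more even ones within the controls. Among those above background on all 6 arrays the medians were 0.10 and 0.33, against 0.15 and 0.29 for the other lncRNAs, so there the Ensembl transcripts had the larger median SD with isoproterenol. The slide 2 arrays lay close to each other, with a median distance of 0.24 between replicates 2 and 3, whereas replicate 1 lay 0.59 from their mean. In 576 transcripts (33.2%) replicate 1 was on the other side of the control mean from both slide 2 arrays, and in 966 (55.7%) all 3 were on the same side. The like shares of all lncRNA probes are not given here.

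Counted array by array, 58 Ensembl transcripts were at least 2-fold above the control mean in isoproterenol replicate 1 and 36 at least 2-fold below it. In replicate 2 the numbers were 229 and 387, and in replicate 3 they were 206 and 363. Falls thus outnumbered rises on both slide 2 arrays and not on the slide 1 array. The like counts over all lncRNA probes are not given here, so this is not read as particular to the Ensembl transcripts. Without replicate 1, which leaves treatment and slide inseparable, 913 Ensembl transcripts passed, 437 higher and 476 lower (52.6%, against 40.3% of all lncRNA probes, 18.2% higher and 22.2% lower). Without control replicate 1, 2 or 3, limma called 2, 0 and 0, and without isoproterenol replicate 2 or 3 it called 0 and 2. The numbers with an unadjusted p under 0.05 were then 336, 273, 251, 283 and 277. For these fits the shares of all lncRNA probes are not given here, so the counts are not read as particular to the Ensembl transcripts. No single array could be left out with the count of 25 kept. Without isoproterenol replicate 1 all 25 were called again among the 913, while without any other array at most 2 of the 25 were.

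Split into 4 groups of like size by the mean over all 6 arrays, the brightest 434 Ensembl transcripts had a median change of 0.36, with 0.23, 0.43 and 0.44 in isoproterenol replicates 1, 2 and 3. The dimmest 434 had a median of −0.20, with 0.17, −0.25 and −0.47. At least 2-fold lower, whatever the p, were 12.9% of the dimmest group, 18% and 17.8% of the middle ones and 4.61% of the brightest. The 343 transcripts above background on neither slide 2 array had a median change of −0.34, made up of 0.14 in replicate 1 and −0.36 and −0.73 in replicates 2 and 3. A low value on slide 2 is what places a transcript among these 343, and the mean used for the 4 groups includes the isoproterenol arrays, so both splits depend in part on the change itself. The part of signal strength in the changes was not tested.

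The order of the identifier classes changed with the fit. Over all lncRNA probes tested, the Ensembl share of 1.44% changed was lower than the 2.75% of the XR transcripts (184 of 6694) and the 7.86% of the NR transcripts (11 of 140), and above the 0.472% of the uc transcripts (2 of 424). Over probes above background on all 6 arrays the Ensembl share of 15.9% was the lowest, with uc at 16.9%, NR at 17.3% and XR at 20.3%. Without isoproterenol replicate 1 the Ensembl share of 52.6% was the highest, with NR at 49.3%, uc at 42.2% and XR at 36.8%. When the lncRNA and mRNA probes were fitted and adjusted together, 116 Ensembl transcripts passed, 74 higher and 42 lower, or 6.69% against 7.44% of lncRNA probes (4.48% higher and 2.96% lower) and 12.4% of mRNA probes. The mRNA-table probes with an Ensembl identifier stood at 8.48% there and the NM probes at 14%. These shares describe the classes, and no test of the difference between classes was made.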

How the data were processed

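The deposited scanner files hold Cy3 intensity values, background-subtracted by the scanner software (Feature Extraction 11.0.1.1, per the file headers). The authors' deposited tables hold normalized log2 values, which equal quantile-normalized log2 intensities of the probes (95th percentile of the difference at most 0.0181 for the Ensembl transcripts). The authors' own steps are not given in the sources used here. Table rows were matched to probes by value: the nearest probe had to lie within 0.05 over the 6 arrays and within 0.25 of the distance to the next, and uc rows not matched so were placed by name. No array had a saturated spot.

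The log2 processed signal minus each array's 75th percentile was tested with limma 3.58.1 in R 4.3.3, two-sided, over lncRNA probes above background on at least 3 arrays; spots marked as outliers did not enter (1 value of 1 Ensembl transcript, not a changed one). The fit was tested on simulated data. Identifiers printed are the 2 largest rises and 2 largest falls past the threshold, without overlap of the groups and with the same direction with slide as a block. mRNA genes took their brightest probe, named through RefSeq (GRCr8), which is not the build of the headers. Members and lists were chosen with earlier results of these data known. The scanner files give no mean signal, so normexp used median signals. Alternatives were array scaling, background correction, filter, slide or replicate block, array weights, joint adjustment, the deposited values and leaving out each array.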

Additional observations from a re-analysis of the deposited data

How the results depend on the processing

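The main counts were 14 Ensembl transcripts higher and 11 lower. They became 7 and 15 with scaling over probes above background on all arrays, 7 and 11 with median scaling, 3 and 2 under quantile normalization, 17 and 4 under normexp and 5 and 9 with the deposited values. They stayed 14 and 11 without a filter, and were 154 and 49 over probes above background on all 6 arrays, 3 and 2 with slide as a block, 77 and 35 with both, an alternative chosen after seeing the data, 0 and 0 within slide 1, 74 and 42 when fitted and adjusted with the mRNA probes, and 406 and 437 with array weights (48.6%, against 36.3% of all lncRNA probes), which gave isoproterenol replicate 1 a weight of 0.131. Leaving out 1 array gave 0 to 437 higher and 0 to 476 lower. Where a count has no share of all lncRNA probes beside it, it does not show a trait particular to the Ensembl transcripts. The cause was not tested.

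With the replicate number as a block 0 were higher and 0 lower in limma, with 475 at an unadjusted p under 0.05. The numbers do not pair the samples: same-numbered deviations correlated at −0.00938, 0.0393 and −0.0217.

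The median change of the Ensembl transcripts ranged from −0.23 to 0.23 over the 19 alternatives. It thus changed sign between them. Each value lay within 0.28 of the main −0.01, where 0.28 is the pooled SD of the median level between arrays of a group. That SD comes mostly from the isoproterenol arrays, with median levels of 1.67, 0.95 and 1.02 in replicates 1, 2 and 3, against 1.39 to 1.47 in the controls. Over all lncRNA probes the median change moved to 0.46 under normexp (0.17 for the Ensembl transcripts) and −0.24 under quantile normalization (−0.20). Of the 25 changed transcripts 24 kept their direction under every alternative they entered; the other, a fall, was at 0.08 under normexp. The 4 named transcripts kept theirs throughout. For settings that only drop or block arrays, the lack of overlap between the groups fixes this direction. Dim signals limit what slide 2 can show: 343 transcripts had no slide 2 array above background.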

Other observations

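The scanner files also hold probes of the Ensembl part of the design that are in neither deposited table. Of 9295 probes numbered within that part, 1735 are in the lncRNA table, 5976 in the mRNA table and 1584 in neither. All 7711 in a table passed the background mark on 3 or more arrays, as did 1 of the 1584 in neither. Of the 1584, 959 were above background on no array, 388 on 1 and 236 on 2. The array that showed most of them was isoproterenol replicate 1, with 395 (24.9%), against 78, 122 and 216 on the controls and 12 and 40 on isoproterenol replicates 2 and 3. Above background on all 3 isoproterenol arrays and on no control were 0 of them. Such a probe passes on 3 arrays, and only 1 of the 1584 did so, which nearly fixed this count beforehand.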
